A study of Sus scrofa with 16 samples.

Results

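IGF2 (ENSSSCG00000035293), its clearance receptor IGF2R and 6 insulin-like growth factor binding proteins (IGFBP2 to IGFBP7) were followed in the pituitary of 16 Złotnicka White gilts. The 8 genes were chosen by name, with earlier results of these data known, out of 25880 genes counted. All 8 passed the expression filter that left 13621 genes for testing. The pituitary was taken whole, so RNA of its anterior and posterior lobes was mixed in each library. Of the gilts, 8 had low feed conversion (LFC) and 8 had high feed conversion (HFC). The labels give 180 days for every gilt and name no treatment. By the study's methods, however, the gilts were killed at a set body weight and not at a set age, and the HFC gilts took longer on test to reach it. The study's trait measurements also show that the HFC gilts gained less per day, had thicker fat on the ham and a lower share of meat. Age, time on test, growth rate, body composition and feed conversion therefore cannot be told apart. No animals were kin, their herds of origin varied, and diet and pens did not differ between the groups. The comparison addressed whether expression in the pituitary differs with feed conversion. In whole-gland RNA, fewer cells of a type and less RNA per cell cannot be told apart.

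Insulin-like growth factors are small peptides that drive cell growth and survival through the IGF1 receptor and, for IGF2, also the insulin receptor. IGF2R carries no kinase. It takes IGF2 into lysosomes for degradation and sorts enzymes that bear mannose 6-phosphate. The binding proteins hold the peptides in the circulation and around cells, where they prolong their life or keep them from the receptor, and proteases such as PAPPA release them. In the pituitary, IGFs act back on the cells that make growth hormone.

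Each library held between 6010629 and 11794256 counts on genes. Levels are given as CPM, which are counts relative to the library total after TMM scaling, a step that removes differences in library composition. Lengths of transcripts were not used here, so levels are compared between pigs and never between genes. Endocrine pituitary markers were present in every pig, with summed levels of 96358 to 188952 CPM in the LFC and 102052 to 214029 CPM in the HFC pigs. The sum hides differences within the list. Of 9 markers tested in edgeR, 1 was higher and 3 were lower in HFC pigs at an unadjusted p of at most 0.05, none after adjustment. PRL was higher (log2 fold change 1.27), and POMC (-1.23), CGA (-0.56) and TBX19 (-0.53) were lower. Of all genes tested, 7.03% were higher and 4.41% lower at this threshold. Markers of posterior lobe glia summed to over 1000 CPM in 4 pigs (LFC replicates 1, 5 and 7 and HFC replicate 6), between 1241 and 6023 CPM, and to between 125 and 258 CPM in the other 12. The difference between the groups was also fitted without these 4 pigs, an alternative added after the data were seen.

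None of the 8 genes was called between HFC and LFC pigs by edgeR's quasi-likelihood test, where a call needed a 1.3-fold change or more and an adjusted p no higher than 0.05. In the background of all 13621 genes, 0% were called by this rule, with a smallest adjusted p of 0.372. DESeq2 called 29 genes, and none of the 8 was among them. At an unadjusted p of at most 0.05, 1 of the 8 genes (12.5%) passed, against 1559 genes (11.4%) of all tested. This share was close to the background. In all, 4 of the 8 genes had a higher and 4 a lower level in the HFC pigs, with a median log2 fold change of -0.04, beside -0.01 over all genes tested. The ranges of the groups overlapped for all 8.

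**Figure D1:**
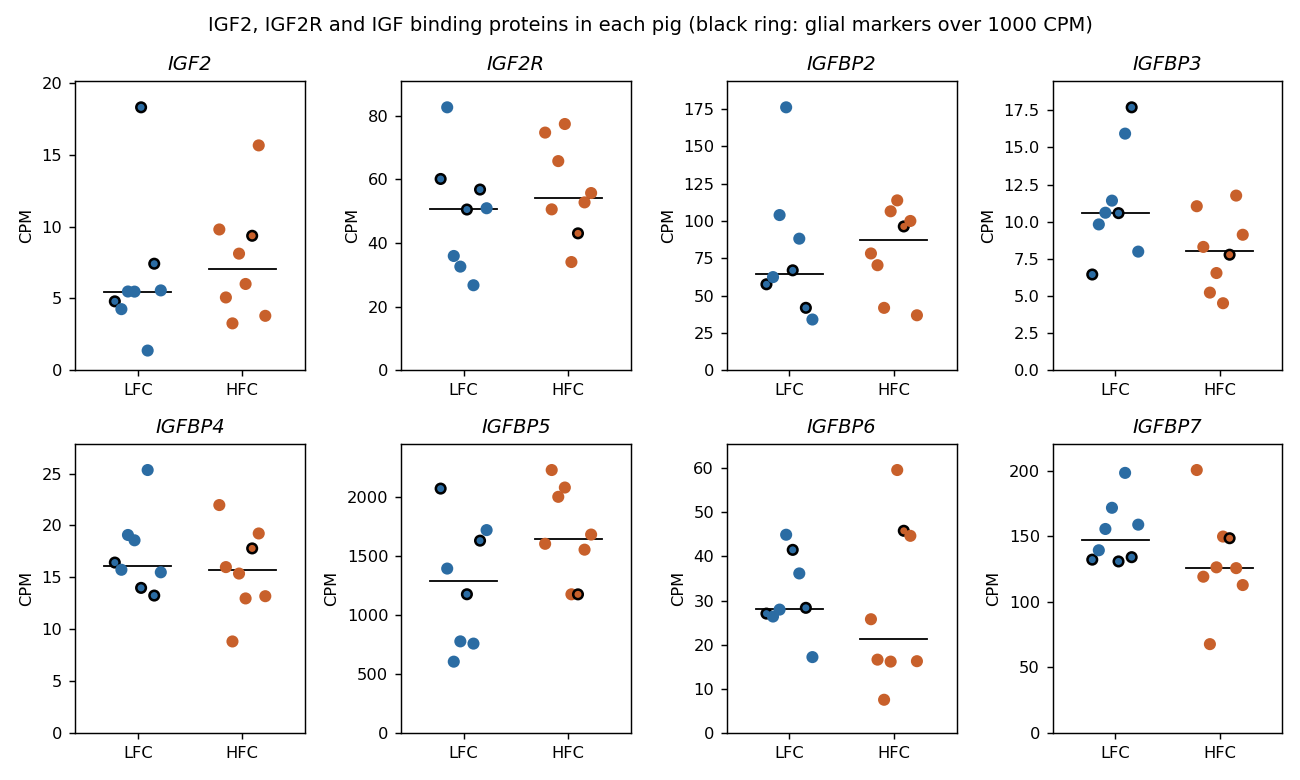
Levels in CPM (vertical axes, linear, from 0) of the 8 genes in the LFC and HFC pigs; each point is 1 pig, the line is the median of 8 pigs, and black rings mark the 4 pigs whose posterior lobe glia markers sum to over 1000 CPM. The groups overlap in every panel, and LFC replicate 5 stands alone at 18.3 CPM of IGF2.

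IGF2, the only ligand among the 8 genes, lies on chromosome 2 of Sscrofa11.1 from 1469104 to 1496346, next to the insulin gene INS. Its counts were low, between 8 and 172 per pig. The lowest, median and highest levels were 1.37, 5.48 and 18.3 CPM in the LFC pigs. In the HFC pigs they were 3.27, 7.07 and 15.7 CPM. Most pigs of both groups lay below 10 CPM, with LFC replicate 5 and HFC replicate 7 above. The lowest value, in LFC replicate 6, rested on 8 counts and has a 95% Poisson interval of 0.591 to 2.70 CPM, which covers counting error only. Against the LFC pigs, its log2 fold change was 0.20 ± 0.39 (SE; 8 pigs per group) with an adjusted p of 0.812 in edgeR, and the 95% interval ran from -0.56 to 0.97. Without LFC replicate 5 it was 0.61, and without HFC replicate 7 it was -0.03. LFC replicate 5 also had the highest sum of posterior lobe glia markers, 6023 CPM, while HFC replicate 7 was among the 12 pigs with low sums. Without the 4 pigs with high sums the log2 fold change of IGF2 was 0.71 ± 0.40 (SE), with an adjusted p of 0.383. The part of posterior lobe tissue in these values was not tested.

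IGF2R lies on chromosome 1 from 7368103 to 7472548. Its lowest, median and highest levels were 26.7, 50.7 and 82.7 CPM in the LFC pigs and 34.0, 54.2 and 77.4 CPM in the HFC pigs. LFC replicates 4 and 6 lay below every HFC pig, and the highest of all was also an LFC pig. In edgeR, its log2 fold change was 0.20 ± 0.21 (SE) with an adjusted p of 0.661. With 1 surrogate variable in the fit, which removes an estimated source of variation shared by many genes, it turned to -0.20. Without the 4 pigs with high glial markers it was 0.36, and with single pigs left out it lay between 0.12 (without HFC replicate 4) and 0.34 (without LFC replicate 2).

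IGFBP2 and IGFBP5 are neighbours on chromosome 15, from 118822009 to 118852036 and from 118857471 to 118878593, with 5434 bases between them. IGFBP2, a binding protein of fetal tissues and brain, had lowest, median and highest levels of 34.0, 64.7 and 176 CPM in the LFC pigs. In the HFC pigs they were 36.8, 87.3 and 114 CPM. The highest value was LFC replicate 4, and 6 of 8 HFC pigs lay above the LFC median. Its log2 fold change was 0.03 ± 0.30 (SE) with an adjusted p of 0.968 in edgeR. Its sign was not stable, as it fell to -0.25 without the 4 pigs with high glial markers.

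IGFBP5, a binding protein that also binds extracellular matrix, had lowest, median and highest levels of 604, 1284 and 2070 CPM in the LFC pigs. In the HFC pigs they were 1174, 1642 and 2228 CPM. Of the LFC pigs, replicates 3, 4 and 6 lay below every HFC pig, and 6 of 8 HFC pigs lay above the LFC median. HFC pigs had a log2 fold change of 0.41 ± 0.23 (SE), the largest upward difference among the 8 genes, with an unadjusted p of 0.0929 and an adjusted p of 0.464 in edgeR. By an exact two-sided permutation test, with 12870 ways to divide the pigs, p was 0.0774. Without the 4 pigs with high glial markers the log2 fold change was 0.75 ± 0.26 (SE), with an unadjusted p of 0.0114 and an adjusted p of 0.288. With 1 surrogate variable it was 0.13.

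IGFBP3 carries most circulating IGF. Its gene model on chromosome 18, from 50000101 to 50035762, also covers the RefSeq position of IGFBP1 and overlaps the start of that of LOC106506856, so its counts may include reads of these genes. Its lowest, median and highest levels were 6.44, 10.6 and 17.7 CPM in the LFC pigs and 4.51, 8.04 and 11.8 CPM in the HFC pigs. Of the HFC pigs, 6 of 8 lay below the LFC median. Against the LFC pigs, its log2 fold change was -0.47 ± 0.22 (SE), with a 95% interval from -0.91 to -0.03, an unadjusted p of 0.0446 and an adjusted p of 0.433 in edgeR. IGFBP3 was the gene of the 8 that passed the unadjusted threshold, where 4.41% of all genes tested were lower and 7.03% higher in HFC pigs. The exact permutation test gave p = 0.062. Leaving out each pig in turn, IGFBP3 stayed at an unadjusted p of at most 0.05 in 5 of 16 fits, with log2 fold changes between -0.57 and -0.35. Without the 4 pigs with high glial markers its log2 fold change was -0.44, with an unadjusted p of 0.0892 in edgeR. With limma voom in place of edgeR it was -0.26, with an unadjusted p of 0.239.

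IGFBP4, a binding protein that restrains IGF action until PAPPA cleaves it, lies on chromosome 12 from 21962639 to 21980945. Its levels had a narrow range, with lowest, median and highest values of 13.2, 16.1 and 25.3 CPM in the LFC pigs and 8.82, 15.7 and 22.0 CPM in the HFC pigs. In edgeR, its log2 fold change was -0.13 ± 0.17 (SE) with an adjusted p of 0.715, and the highest and the lowest of the 16 pigs were in different groups. It was -0.28 without the 4 pigs with high glial markers, and between -0.21 (without HFC replicate 1) and -0.013 (without LFC replicate 6) with single pigs left out.

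IGFBP6, a binding protein with a preference for IGF2, lies on chromosome 5 from 18353171 to 18357225. Its lowest, median and highest levels were 17.2, 28.1 and 44.9 CPM in the LFC pigs. In the HFC pigs they were 7.51, 21.2 and 59.6 CPM. The HFC pigs fell on both sides, since 5 of them lay below the LFC median, replicates 5 and 6 lay above the highest LFC pig and replicate 7 just below it. The coefficient of variation was 64.0% in the HFC and 29.0% in the LFC pigs. Its log2 fold change was -0.11 ± 0.33 (SE) with an adjusted p of 0.890 in edgeR, and it turned to 0.21 with 1 surrogate variable. Without the 4 pigs with high glial markers it was -0.20.

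IGFBP7 binds IGFs weakly and is abundant in blood vessel walls. It lies on chromosome 8 from 56279895 to 56357881, and its start overlaps the end of POLR2B in the annotation. The libraries did not keep the strand, so reads in the overlap cannot be assigned by strand. Its lowest, median and highest levels were 131, 147 and 198 CPM in the LFC pigs and 67.7, 126 and 200.5 CPM in the HFC pigs. All 8 LFC pigs lay above the HFC median, and HFC replicate 1 was the highest of all. HFC pigs had a log2 fold change of -0.22 ± 0.16 (SE) with an adjusted p of 0.538 in edgeR. It was -0.35 without the 4 pigs with high glial markers, and between -0.33 (without HFC replicate 1) and -0.12 (without HFC replicate 3) with single pigs left out.

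The genes differed in how much they varied between pigs. Over all 16 pigs, the highest level was 13.4 times the lowest for IGF2, 7.93 times for IGFBP6 and 5.19 times for IGFBP2. For the other 5 genes it was between 2.87 times (IGFBP4) and 3.92 times (IGFBP3). The within-group SD of log2(CPM + 1) of IGFBP2 was 0.68, above that of 99.1% of the 4130 tested genes within 1 log2 unit of its level. For IGFBP6 it was 0.74, above 98.7% of such genes, for IGF2 0.75, above 94.7%, and for IGF2R 0.46, above 93.7%. IGFBP4, with an SD of 0.33, lay above 68.3%. These shares are a description and were not tested.

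The rest of the pathway was taken from a list of 42 ligands, receptors, proteases, adaptors, regulators and growth hormone genes. Of these, 38 were matched to the count table and 31 passed the filter. The list had 22 genes higher and 9 lower in HFC pigs, where 47.9% of all genes tested were higher. Its median log2 fold change was 0.07, beside -0.01 over all genes. At an unadjusted p of at most 0.05, 4 genes (12.9%) passed, 3 higher and 1 lower, which was again close to the 11.4% of all genes. None was called, with adjusted p-values between 0.413 and 0.991 in edgeR.

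**Figure D2:**
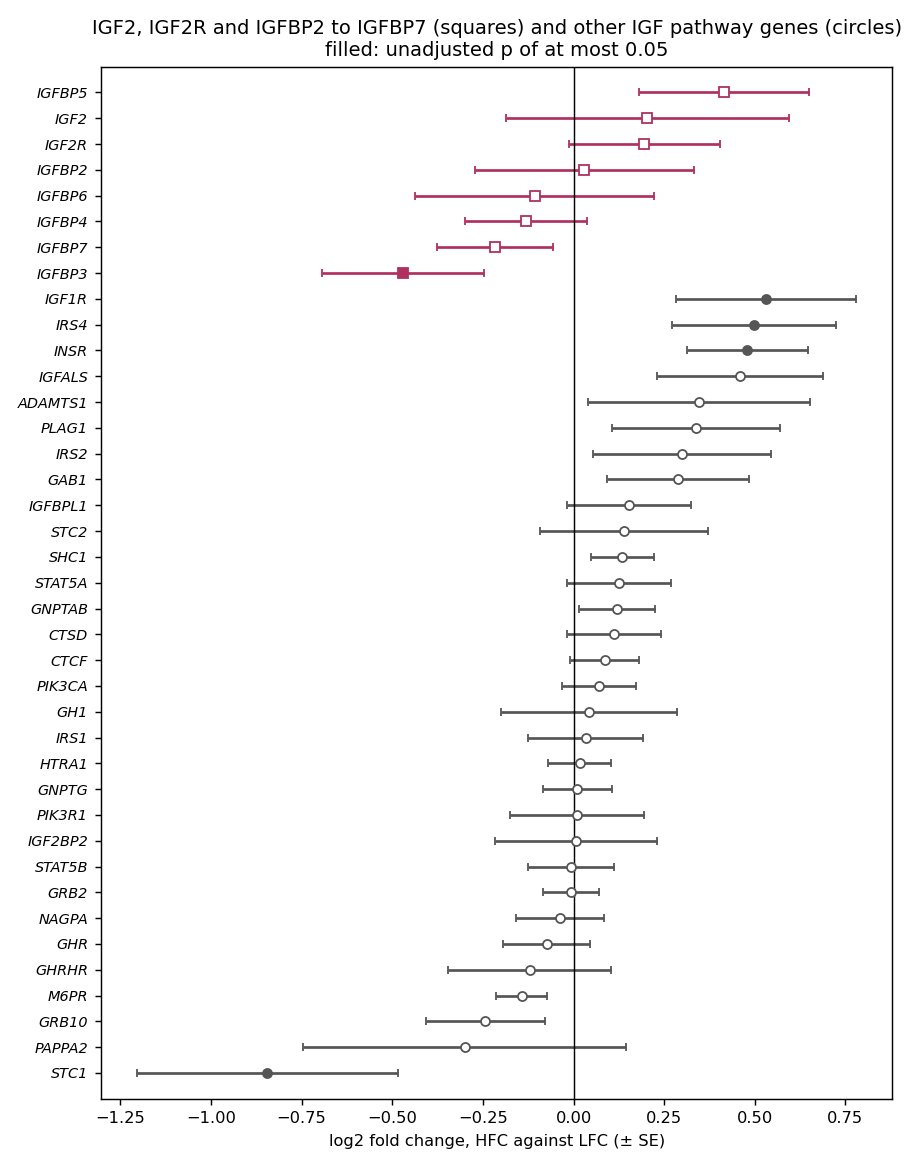
Log2 fold change of HFC against LFC pigs (horizontal axis, edgeR, bars are ± 1 SE, 8 pigs per group) for IGF2, IGF2R and IGFBP2 to IGFBP7 (squares) and the 31 other pathway genes tested (circles); filled symbols have an unadjusted p of at most 0.05. IGFBP3 is the only filled square, at -0.47, and IGF1R, IRS4, INSR and STC1 are the filled circles.

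Of the receptors that signal, IGF1R and INSR had higher mean levels in HFC pigs, and neither was called. Of all genes at an unadjusted p of at most 0.05, 61.4% were higher in HFC pigs. IGF1R, the kinase receptor of IGF1 and IGF2, had 27.1 ± 12.7 CPM (SD, n = 8) in LFC and 39.4 ± 12.1 CPM (SD, n = 8) in HFC pigs, and all 8 HFC pigs lay above the LFC median. Its log2 fold change was 0.53 ± 0.25 (SE), with an unadjusted p of 0.0453 and an adjusted p of 0.433 in edgeR. INSR, the insulin receptor, had 12.7 ± 3.06 CPM (SD, n = 8) in LFC and 17.9 ± 4.10 CPM (SD, n = 8) in HFC pigs. Its log2 fold change was 0.48 ± 0.17 (SE), with an unadjusted p of 0.00926 and an adjusted p of 0.413, and the unadjusted p stayed at most 0.05 in all 16 fits that left out 1 pig. For IGF1R this held in 5 of 16 fits. IRS4, an adaptor of these receptors, had a log2 fold change of 0.50 ± 0.23 (SE) with an unadjusted p of 0.0396 and an adjusted p of 0.431. With 1 surrogate variable these 3 values fell to 0.17 for IGF1R, 0.25 for INSR and 0.13 for IRS4.

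STC1 encodes stanniocalcin, an inhibitor of the protease PAPPA. Its levels were 24.9 ± 17.5 CPM (SD, n = 8) in LFC and 13.7 ± 6.16 CPM (SD, n = 8) in HFC pigs, and 7 of 8 HFC pigs lay below the LFC median. Against the LFC pigs, its log2 fold change was -0.85 ± 0.36 (SE), with an unadjusted p of 0.0284 and an adjusted p of 0.423 in edgeR. Without LFC replicate 3 it was -0.44, with an unadjusted p of 0.154. PAPPA itself lay under the expression filter, with 1 to 12 counts per pig. GHR, the growth hormone receptor, had a log2 fold change of -0.07 ± 0.12 (SE) with an adjusted p of 0.780.

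IGF1 was counted 3 to 11 times per pig and was removed by the filter. Its levels were 1.14 ± 0.290 CPM (SD, n = 8) in LFC and 0.735 ± 0.230 CPM (SD, n = 8) in HFC pigs. All 8 HFC pigs lay below the LFC median, although the ranges overlapped. In the fit without a filter its log2 fold change was -0.48 ± 0.28 (SE), with an unadjusted p of 0.0434 and an adjusted p of 0.505 in edgeR. At such low counts the prior count shrinks the fold change but not its SE, so their ratio does not give this p. The other genes under the filter were INS, INSRR, IGFBP1, IGF2BP1 and IGF2BP3. INS had 1 count in 1 of the 16 pigs, and IGF2BP1 had none. IGFBP1, whose position lies within the gene model of IGFBP3, had 0 to 22 counts. ZBED6, HMGA2, H19 and SOCS2 were not matched by name and are not analysed here.

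The 8 genes were next compared with each other over the 16 pigs. Among 28 pairs, 11 had an unadjusted permutation p of at most 0.05 for Pearson's r on log2(CPM + 1), and 2 passed after adjustment over the pairs. Pigs with more IGFBP4 had more IGFBP7, and pigs with more IGF2R had more IGFBP5. In the other direction, IGFBP5 was low in pigs with high IGFBP6.

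**Figure D3:**
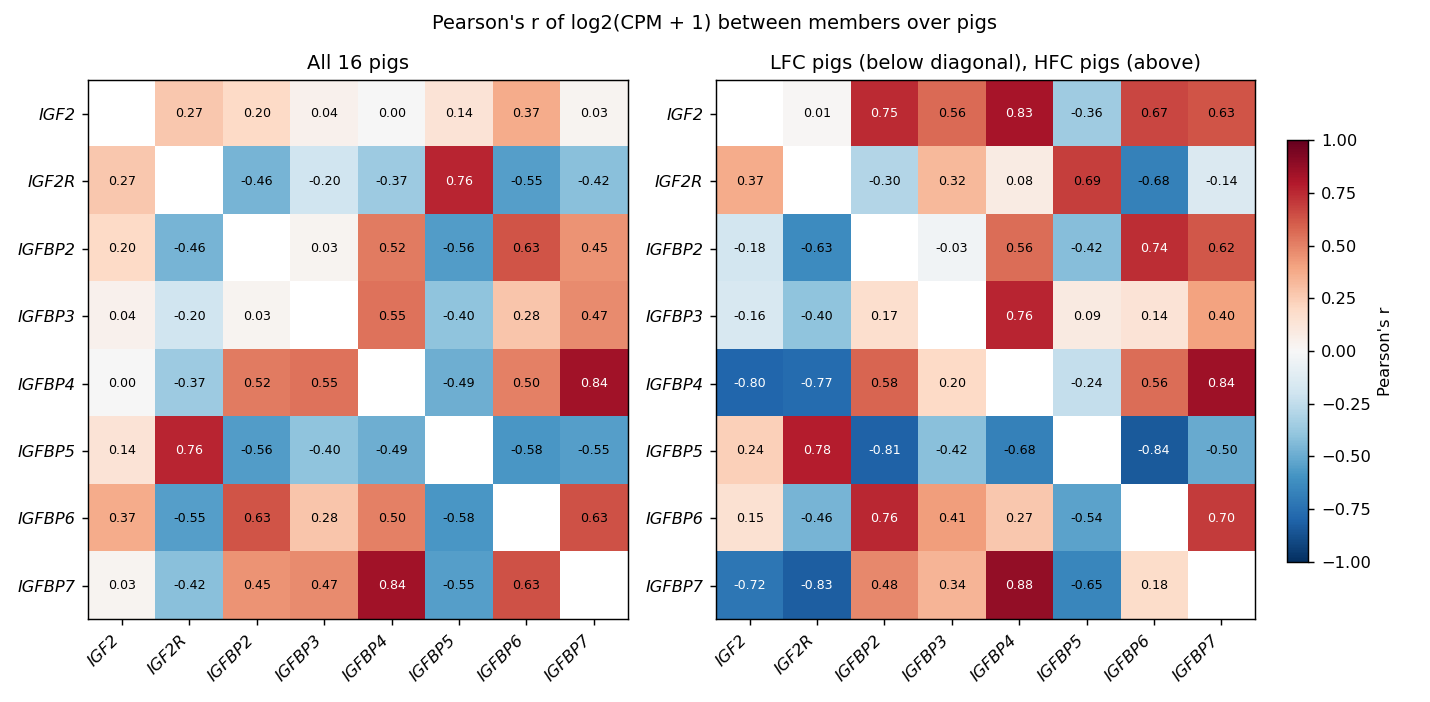
Pearson's r of log2(CPM + 1) for the 28 pairs of the 8 genes, over all 16 pigs (left) and within the 8 LFC pigs (right, below the diagonal) and the 8 HFC pigs (right, above the diagonal); red is positive and blue negative. IGFBP4 with IGFBP7 and IGF2R with IGFBP5 are high in all 3 sets of pigs, and IGF2 with IGFBP4 is negative in LFC and positive in HFC pigs.

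For IGFBP4 and IGFBP7, r was 0.84 (permutation p = 0.00012, adjusted p = 0.00336) and Spearman's rho was 0.57 (p = 0.0222, adjusted p = 0.117). Within the groups r was 0.88 in LFC (exact p = 0.00595) and 0.84 in HFC pigs (exact p = 0.014). With the 2 pigs most distant from the IGFBP4 median left out, r was 0.60 with an adjusted permutation p of 0.0747, so the call did not hold without both. With single pigs left out, r was lowest, at 0.71, without HFC replicate 3. The adjusted permutation p was highest there, at 0.0426. IGFBP7 ranked 3 among all tested genes by r with IGFBP4.

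For IGF2R and IGFBP5, r was 0.76 (permutation p = 0.00064, adjusted p = 0.00896) and rho was 0.67 (p = 0.00561, adjusted p = 0.0581). Within the groups r was 0.78 in LFC (exact p = 0.0241) and 0.69 in HFC pigs (exact p = 0.0575). Leaving out the 2 pigs most distant from the IGF2R median gave 0.79. Leaving out the 2 most distant from the IGFBP5 median gave 0.65, for which no p was taken. For IGFBP5 and IGFBP6, r was -0.58 (permutation p = 0.0175, adjusted p = 0.0884) and rho was -0.74 (p = 0.00121, adjusted p = 0.0339). This was the only pair to pass by rank. The neighbours IGFBP2 and IGFBP5 had an r of -0.56 (permutation p = 0.0225, adjusted p = 0.0884), so they did not rise and fall together across pigs.

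Pigs also differed in how expression depended on the span of a gene in the genome. For each pig, the slope of the expression of 10890 genes on log2 span was taken, relative to the mean of all pigs. The slope was -0.017 ± 0.044 (SD, n = 8) in LFC and 0.017 ± 0.038 (SD, n = 8) in HFC pigs (exact permutation p = 0.125). The slope came from these same libraries, with each gene weighted by its log2 span, so long genes tend to follow it by construction. The permutation p-values treat it as a separate measure, which it is not. IGF2R, which spans 104 kb, followed this slope (r = 0.91, rho = 0.90). Each had an adjusted p of 0.00072 over 72 relations of the 8 genes with 9 measures of the pigs. IGF2R with the slope was the only one of these relations to pass. Within the groups r was 0.90 in LFC (exact p = 0.00126) and 0.93 in HFC pigs (exact p = 0.000248), and with the 2 pigs of the most distant slopes left out it was 0.85. IGFBP5 had an r of 0.72 with the slope (permutation p = 0.00193, adjusted p = 0.0695), although it spans 21.1 kb. After the slope was taken out of both genes, r between IGF2R and IGFBP5 was 0.36 with an adjusted p of 0.362, while r between IGFBP4 and IGFBP7 stayed at 0.83. IGFBP6 had an r of -0.60 with the slope (permutation p = 0.0136, adjusted p = 0.162) and a rho of -0.71. With the slope taken out, r between IGFBP5 and IGFBP6 was -0.27 with an adjusted p of 0.504, and r between IGF2R and IGFBP6 went from -0.55 to -0.002. IGF1R and INSR, which span more of the genome than IGF2R, were not set against the slope. The share of all genes with as high an r with the slope as IGF2R was not taken. The part of RNA quality in the slope was not tested.

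**Figure D4:**
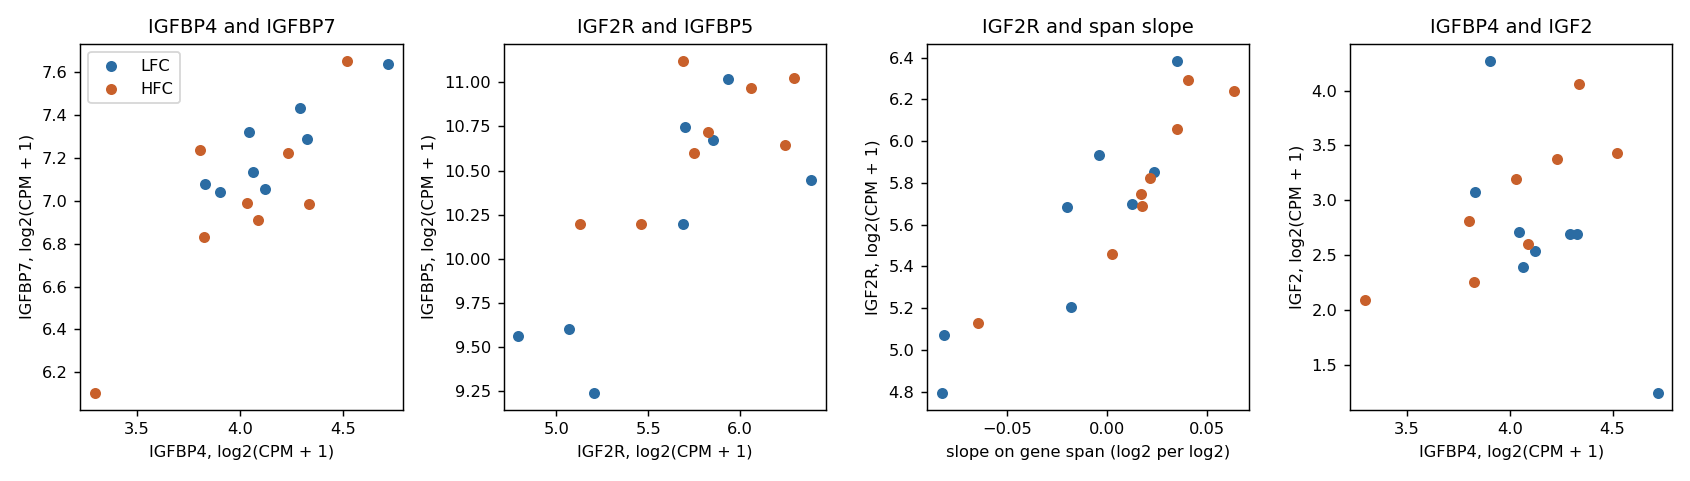
Each point is 1 pig, LFC in blue and HFC in orange; axes are log2(CPM + 1), except the slope of expression on gene span. From left, IGFBP7 rises with IGFBP4 (r 0.84), IGFBP5 with IGF2R (r 0.76) and IGF2R with the slope (r 0.91), and IGF2 falls with IGFBP4 in LFC and rises in HFC pigs.

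No relation of IGF2 to the other 7 genes passed over all pigs, with r between -0.004 and 0.37 and a lowest permutation p of 0.161. Its relation to IGFBP4 had opposite signs in the groups, with r of -0.80 in LFC (exact p = 0.0321) and 0.83 in HFC pigs (exact p = 0.0111). An exact permutation test of the difference between the groups, over 12870 splits of values centred within groups, gave p = 0.0073 and an adjusted p of 0.152 over 28 pairs. Leaving out each pig in turn, r stayed between -0.85 and -0.54 in LFC and between 0.76 and 0.87 in HFC pigs. For IGF2 and IGFBP2 the difference had p = 0.0109 by the same exact test and the same adjusted p of 0.152, with r of -0.18 in LFC and 0.75 in HFC pigs. No pair passed the adjustment.

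Genes whose levels were most like each member over the 16 pigs were different for each of the 8. IGF2 was most like AEBP1 (r 0.90), TLCD2 (r 0.83) and FN1 (r 0.83), where AEBP1 and FN1 encode extracellular matrix proteins. IGF2R was most like SNRNP200 (r 0.96) and PRPF8 (r 0.96), both of the spliceosome. IGFBP2 was most like TGFB3 (r 0.90), SSFA2 (r 0.87) and EPHA2 (r 0.85). IGFBP5 was most like ATP2B3 (r 0.91), a calcium pump, MAPKBP1 (r 0.90) and NECTIN1 (r 0.89). IGFBP6 was most like SLC26A7 (r 0.94), an anion transporter, ATP1B3 (r 0.93) and SFT2D1 (r 0.93). IGFBP7 was most like CFD (r 0.90), GJA4 (r 0.89), a gap junction protein of arteries, and ENPP6 (r 0.89). IGFBP4 was most like PHC2 (r 0.88), IGFBP7 and SLA-DMA (r 0.83). For IGFBP3 the closest was LAD1, with an r of 0.76, followed by ALDH3B1 and FAM111B, both at 0.74. These genes were picked for their r among 13621, so no p is given.

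The number of genes with an r of at least 0.8 differed widely between members. IGF2R had 806 such genes (5.92% of those tested), IGFBP6 had 136, IGFBP5 had 99 and IGFBP7 had 34. IGFBP2 had 14, IGF2 11, IGFBP4 10 and IGFBP3 0.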

How the data were processed

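Whole pituitary RNA of 16 gilts was sequenced. According to the study's methods, reads were trimmed with Flexbar and counted with RSEM on Ensembl genes of Sscrofa11.1. For the alignment the methods name both Bowtie 2 and STAR. The library kit was not strand-specific. The authors deposited whole-number counts per gene and pig, without normalization. Their comparison table was used only for gene symbols and positions (deposited start and end of each gene, unit other than expression), and its group means, fold changes and p-values were not used. The submitters' processing notes also name CASAVA 1.8.2 and FastQC.

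The 8 genes, the pathway list and the markers were chosen with earlier results of these data known. Symbols came from the deposited table (9550 genes), an Ensembl ID table (5875) or position (323). ENSSSCG00000035293 was named IGF2 by the ID table. Named genes were the 8 genes, pathway genes at an unadjusted p of at most 0.05 or under the filter, IGF1, IGF1R, INSR, GHR and PAPPA, and per member the 3 genes with a symbol and the highest r. A gene that this rule names is not reported here. M6PR, the other sorting genes, IGFALS and the markers PRL, POMC, CGA and TBX19 were named after their values were seen.

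Quasi-likelihood F tests of edgeR 4.0.16 (R 4.3.3) followed TMM scaling and filterByExpr, with a prior count of 2 and Benjamini-Hochberg adjustment over 13621 genes. Single genes were compared by exact permutation over all splits of the pigs, on log2(CPM + 1). Correlations had 100000 resamples over 16 pigs and were exact within groups. The labels give no animal batches. Libraries of 1 group differed by more than sampling noise in all 56 pairs (chi-square per degree of freedom from 11.4 to 85.9). Groups rested on a label whose tag is named shear force, another trait, while its values (low_FCR and high_FCR) name feed conversion. Alternatives used DESeq2 1.42.0, limma 3.58.1 and sva 3.50.0. Permutations ran in Python 3.11.15 with scipy 1.17.1, pandas 2.3.3 and numpy 2.4.6. The tests were tested on simulated data.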

Additional observations from a re-analysis of the deposited data

Results flagged for a closer look

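IGF2 in LFC replicate 5, at 18.3 CPM, stood apart from the other LFC pigs: its gap to the next pig was a larger share of the range of the group than Dixon's critical value for 8 samples allows. Among 16 groups tested on CPM (8 genes in 2 groups) this was the only such value. Chance alone flags about 1 in 20 groups, so a single value among 16 is about what chance gives. On log2(CPM + 1), LFC replicate 5 stood at 4.27, the next LFC pig at 3.07 and the lowest at 1.24. Dixon's test was not run on that scale. The same pig had the highest sum of posterior lobe glia markers, 6023 CPM, and the part of this in the value was not tested.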

How the results depend on the processing

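No gene was called at an adjusted p of at most 0.05 under any edgeR or limma setting, and DESeq2 called 29 genes. The number of genes at an unadjusted p of at most 0.05 was 1559, 625 with 1 surrogate variable and 2540 with limma voom and sample weights. With single pigs left out it ranged from 989 (without HFC replicate 4) to 3514 (without HFC replicate 5), with 1013 without LFC replicate 4. The share of these genes higher in HFC pigs was 61.4%, against 46.0% with total library size, 51.7% with limma voom and 52.6% with upper-quartile scaling. Among the 8 genes, 1 passed this threshold, and 0 passed with 1 surrogate variable, with limma voom, with total library size or with at least 10 counts in every pig, which removes IGF2. With pigs left out it was 0 to 2, with 2 without HFC replicate 1 or LFC replicate 1. Among the other pathway genes 4 passed, 0 with 1 surrogate variable, 2 with total library size, and 2 to 6 with pigs left out.

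The log2 fold change of IGF2R turned to -0.20 and that of IGFBP6 to 0.21 with 1 surrogate variable. That of IGFBP2 was -0.25 without the 4 pigs with high glial markers, an alternative chosen after seeing the data. With pigs left out the log2 fold changes ranged from -0.028 to 0.61 for IGF2, from -0.064 to 0.32 for IGFBP2 and from -0.30 (without HFC replicate 5) to 0.038 (without HFC replicate 3) for IGFBP6. Those of IGF2R, IGFBP3, IGFBP4, IGFBP5 and IGFBP7 kept their sign in all 16 of these fits. The cause was not tested. The pairs of the 8 genes with an adjusted p of at most 0.05 were 2 over all pigs, 0 within the LFC and 0 within the HFC pigs, 4 after centring on group means, 6 without the 2 pigs farthest from the median, and 2 to 4 with pigs left out, with 4 without LFC replicate 7, HFC replicate 1 or HFC replicate 4. The smaller number of pigs within a group also leaves less room for a small p.

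With a replicate block, 0 genes were called, 1404 passed the unadjusted threshold, and so did 1 of the 8 genes and 4 pathway genes. The log2 fold changes with the replicate block were 0.29 for IGF2, 0.49 for IGFBP5 and -0.48 for IGFBP3. Pigs sharing a replicate number did not deviate together (r from -0.34 to 0.37, above 0.1 for 3 of 8 numbers), so the numbers do not pair the pigs. A level scaled by coding length was not run. Depth limits IGF2, with 8 to 172 counts per pig, and IGF1, with 3 to 11.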

Other observations

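Genes of mannose 6-phosphate sorting, the lysosomal route that IGF2R serves, included M6PR, the smaller receptor of the same kind. M6PR and IGFALS were picked after their values were seen. M6PR had 96.9 ± 8.98 CPM (SD, n = 8) in LFC and 87.7 ± 4.58 CPM (SD, n = 8) in HFC pigs, and all 8 HFC pigs lay below the LFC median. Its log2 fold change was -0.14 ± 0.07 (SE), with an unadjusted p of 0.0578 and an adjusted p of 0.438 in edgeR. The share of all genes tested with all 8 HFC pigs on the same side of the LFC median was not taken. The other sorting genes did not follow M6PR. GNPTAB, GNPTG and NAGPA had log2 fold changes of 0.12, 0.01 and -0.04, with adjusted p-values between 0.598 and 0.965 in edgeR. For GNPTAB, 7 of 8 HFC pigs lay above the LFC median. IGFALS, which forms the large circulating complex with IGFBP3, had 4.41 ± 1.48 CPM (SD, n = 8) in LFC and 6.15 ± 1.81 CPM (SD, n = 8) in HFC pigs. Its log2 fold change was 0.46 ± 0.23 (SE), with an unadjusted p of 0.0508 and an adjusted p of 0.433.

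Among relations of the 8 genes with summed marker lists, none passed the adjustment. IGFBP7 had an r of 0.67 with macrophage and leukocyte markers (permutation p = 0.00494, adjusted p = 0.101, rho 0.65), 0.09 within LFC and 0.73 within HFC pigs, and 0.50 without the 2 pigs farthest from the median. IGF2R had an r of -0.66 with red cell markers (permutation p = 0.00559, adjusted p = 0.101, rho -0.66), and -0.69 without the 2 such pigs. IGF2 had an r of -0.55 with endocrine pituitary markers (permutation p = 0.0269, adjusted p = 0.168, rho -0.64), and -0.70 without the 2 such pigs. IGFBP6 had nearly the same relation (r -0.54, permutation p = 0.0292). That sum adds genes that differ between the groups in opposite directions. Other relations had permutation p-values under that of IGF2. Among them were IGF2R with fibroblast markers (r 0.61), IGFBP6 with macrophage and leukocyte markers (r 0.59) and IGFBP5 with red cell markers (r -0.57). Posterior lobe glia markers separated 4 pigs from 12, so no relation over all pigs is given for them.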
